A study of Homo sapiens with 4 samples.

Results

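The windows of chromosome 2 in which the peaks deposited from an H3K9me3 experiment were densest are described here. Members were chosen by measured values: a full 1 Mb window, counted from the start of the chromosome on hg19, was kept where the peaks of list 1 and the peaks of list 2 each covered more than 60% of it. This gave 30 of the 243 full windows of chromosome 2 (12.3%). With these included, it gave 142 of the 3025 full windows of chromosomes 1 to 22 and X (4.69%). The chromosomes other than 2 had 112 of 2782. The peaks inside, placed by their midpoint, were 1725 of list 1 and 3120 of list 2, out of 326674 and 264919 on all these chromosomes. The other 213 windows of chromosome 2 serve as the comparison. They include the windows from 93 and 94 Mb, which held no peak of either list and lower the mean coverage of this group. Since coverage by the peaks of these lists made the choice, every difference from the other windows is given as a description, with no test.

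All 4 samples were U2OS cells, a human osteosarcoma line, labelled KRAB-IDR3-TCF3 and fixed with formaldehyde. Samples precipitated with an antibody against H3K9me3 numbered 2, and 2 input samples had no antibody. No sample without KRAB-IDR3-TCF3 is among them, and the labels do not explain the name. The values are broad peak lists, called list 1 and list 2 after the numbers in their peak names. The descriptions of the samples and the peak names disagree on which samples a list comes from. The descriptions name list 1 for both input samples and list 2 for both antibody samples, while the peak names of each list give IP and a number. Whether list 1 comes from antibody or input samples is thus not settled, and neither list stands for a sample or a group. A difference between the lists is therefore no treatment effect, and replicate error could not be had. Each SD is a spread over windows. No value was corrected for DNA copy number or for repeats. The lists hold no read counts and have different lower limits, with a lowest fold enrichment on chromosome 2 of 1.44 in list 1 and 1.90 in list 2.

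H3K9me3 is the trimethyl mark on lysine 9 of histone H3. It is bound by HP1 proteins, which recruit further methyltransferase, so that the mark can spread along a chromosome and form broad domains rather than sharp peaks. It is best known from the repeats around centromeres, and it also covers silenced stretches of chromosome arms. KRAB, found in many zinc finger proteins, is a repressor domain that brings in the machinery writing this mark. Human chromosome 2 arose from the end-to-end fusion of a pair of ancestral chromosomes, and the fusion site lies on the proximal long arm. Its position was not read from the files.

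Dense windows were frequent on the short arm and on the proximal long arm and nearly absent from the distal long arm. The longest stretch of the chromosome without a peak in either list, from 92325992 to 95329114 (3.0 Mb), stood in for the centromere gap. The short arm held 17 dense windows of 94 (18.1%) and the long arm 13 of 149 (8.72%). On the long arm, 12 of the 41 windows up to 135 Mb were dense (29.3%), but only 1 of the 108 windows from 135 Mb on (0.926%). The stretch between the run that ended at 135 Mb and the last dense window, from 240 to 241 Mb, held 105 windows in a row that missed the limit. This border at 135 Mb was chosen after the windows had been seen.

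Coverage of the distal long arm averaged lower than that before the border in each list. Over its 108 windows it averaged 51.9% ± 13.0 (list 1) and 27.5% ± 11.4 (list 2), against 61.2% ± 22.4 and 42.4% ± 19.9 over the 135 windows before the border (SD over windows). With the dense windows left out, the means were 51.6% ± 12.6 and 27.1% ± 10.7 over 107 distal windows, against 54.5% ± 20.6 and 35.1% ± 15.6 over 106 windows before the border. At a limit of 50% in each list, 2 of 48 windows lay beyond 135 Mb, and at 70% none of 14 did.

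No dense window lay beside the centromere gap. The nearest one on the long arm began 8.67 Mb beyond the stand-in, and the nearest on the short arm ended 10.3 Mb before it. The first dense window of the chromosome began at 4 Mb and the last ended 2.05 Mb before the last peak. The stand-in reached into the windows on both of its sides. List 1 covered 5.22% and list 2 4.05% of the window from 92 to 93 Mb, while the window from 95 to 96 Mb had 27.7% and 21.3%. Whether reads could be placed beside the stand-in was not tested, so low coverage there is not read as a lack of H3K9me3.

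**Figure D1:**
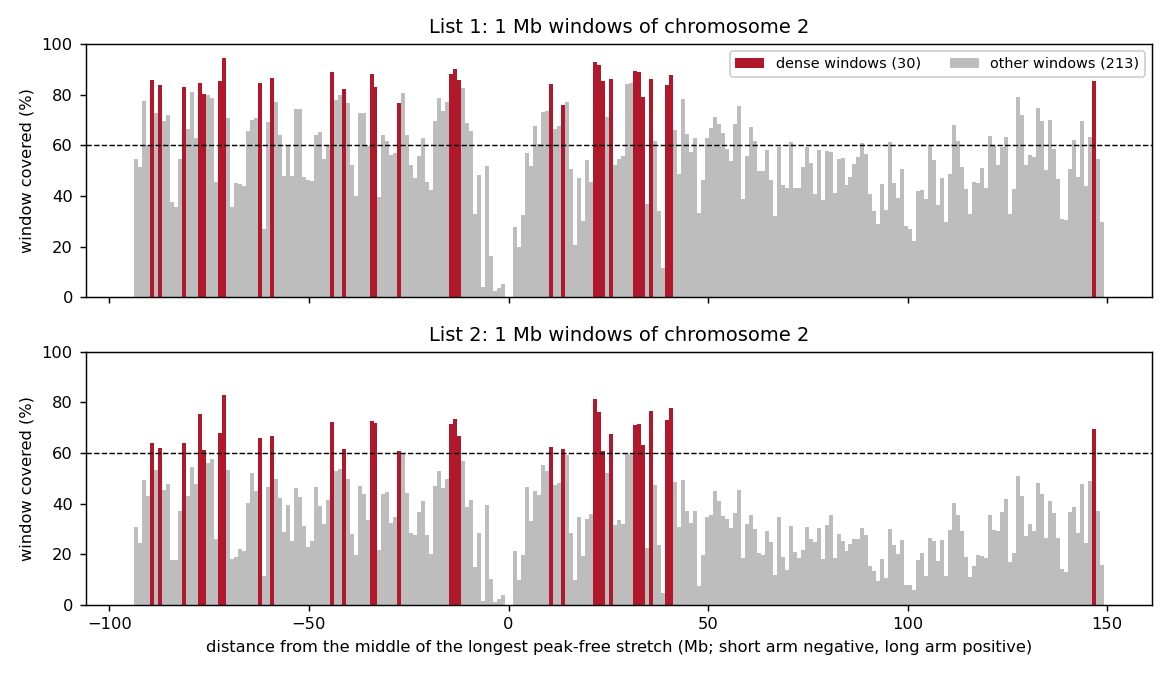
Covered share (%) of each of the 243 full 1 Mb windows of chromosome 2 in list 1 (top) and list 2 (bottom), by distance in Mb from the middle of the longest peak-free stretch, with the short arm negative. The 30 dense windows (red) lie in the short arm and the proximal long arm except for 1, the other 213 are grey, and the dashed line marks the 60% limit.

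The 30 dense windows formed 20 runs of adjacent windows, most of them short. The window from 4 to 5 Mb, for example, spans positions 4000001 to 5000000. A single window made up 13 runs, 4 runs had 2 windows and 3 runs had 3 windows. Of the 19 pairs of neighbouring runs, 3 were parted by 1 window and another 3 by 2 windows. On the short arm the single windows began at 4, 6, 12, 31, 34, 49, 52 and 66 Mb. Their covered shares lay between 76.9% (66 Mb) and 88.8% (49 Mb) in list 1 and between 60.9% (66 Mb) and 72.1% (49 Mb) in list 2.

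The longer runs of the short arm began at 16, 21, 59 and 79 Mb. From 16 to 18 Mb the means were 82.4% for list 1 and 68.3% for list 2, whose first window (75.4%) was denser than the second (61.2%). From 21 to 23 Mb the means were 89.9% and 75.3%, and the window from 22 to 23 Mb was the densest of the chromosome. From 59 to 61 Mb they were 85.5% and 72.3%, with nearly equal windows in list 2 (72.7% and 72.0%). The run from 79 to 82 Mb was the only one of the short arm with 3 windows, at 88.3%, 90.2% and 85.7% in list 1 and 71.4%, 73.2% and 66.7% in list 2. Its middle window was the densest in both lists.

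On the long arm, 2 isolated windows came first and were thinly past the limit. List 1 covered 84.2% and list 2 62.5% of the window from 104 to 105 Mb, and 75.7% and 61.6% of that from 107 to 108 Mb. A row of 5 runs then followed between 115 and 135 Mb. These 20 windows held 10 dense ones (50%), against 12.3% of the whole chromosome. The stretch was chosen because the dense windows lie there, so nothing is read from its share.

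Within this stretch, the run from 115 to 118 Mb thinned along its length. It was covered 92.7%, 91.6% and 85.3% in list 1 and 81.2%, 76.2% and 60.8% in list 2. The window from 119 to 120 Mb had 86.3% and 67.6%. From 125 to 128 Mb the windows had 89.4%, 89.1% and 79.1% in list 1 and 70.9%, 71.4% and 63.0% in list 2, so here too the last window was the thinnest. The window from 129 to 130 Mb had 86.3% and 76.5%. From 133 to 135 Mb the shares were 83.7% and 87.7% in list 1 and 73.0% and 77.9% in list 2. The only dense window further along, from 240 to 241 Mb, had 85.3% and 69.3%.

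The 5 windows with the highest share in the lower of the lists were those from 22, 115, 134, 129 and 116 Mb. The densest, chromosome 2 from 22000001 to 23000000, had 94.5% under list 1 and 82.7% under list 2. The next, from 115000001 to 116000000, had 92.7% and 81.2%. The rank order was that of list 2 throughout, because list 2 had the lower share in every dense window. Over the 30 windows the share lay between 75.7% and 94.5% for list 1 (median 85.5%) and between 60.8% and 82.7% for list 2 (median 68.5%), against medians of 54.4% and 30.5% in the other windows.

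List 2 alone fixed which windows were members. List 2 covered more than 60% of 30 windows (12.3%), and list 1 covered more than 60% of 107 windows (44%), which included all 30. List 1 covered at least 75.7% of every window in which list 2 passed the limit. The 77 windows past the limit in list 1 alone had a median of 45.5% in list 2, and 28 of them lay from 135 Mb on. Just inside the limit were the windows from 17 Mb (61.2% in list 2), 66 Mb (60.9%) and 117 Mb (60.8%). Just outside were those from 123 Mb (59.8%), 67 Mb (59.4%) and 124 Mb (59.4%). Those from 67 and 124 Mb border a dense window, and the window from 123 Mb lies next to the one from 124 Mb. Their shares in list 1 (84.1%, 80.7% and 84.8%) lay within the range of the dense windows. A slightly lower limit would therefore lengthen the runs at 66 and 125 Mb.

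**Figure D2:**
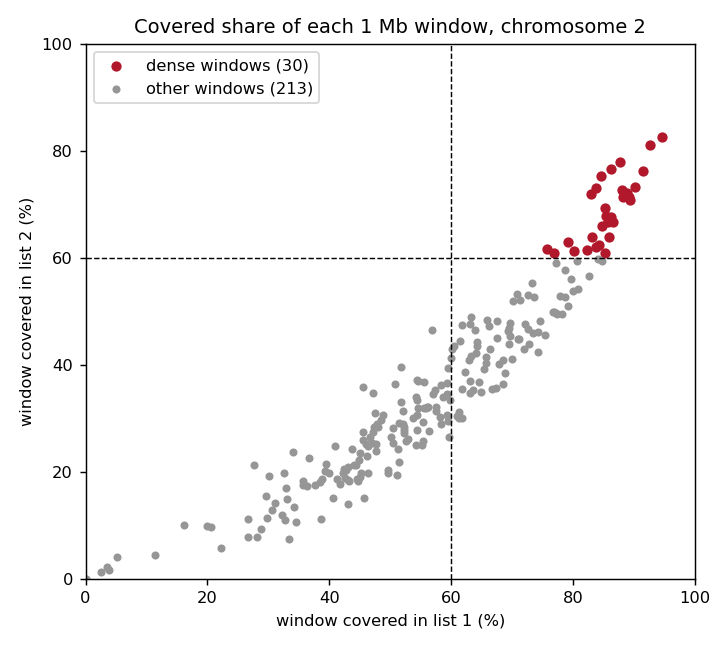
Covered share (%) of each 1 Mb window of chromosome 2 in list 1 (horizontal) and list 2 (vertical), with dashed lines at 60%. The 30 dense windows (red) start at 75.7% in list 1, so the horizontal line of list 2 separates them from the 213 other windows (grey), of which 77 lie to the right of the vertical line.

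Surroundings of the dense windows differed widely. The 37 other windows that border a run averaged 63.5% ± 16.2 in list 1 and 43.4% ± 13.1 in list 2 (SD over windows). At 2 windows from the nearest dense window the 25 windows averaged 59.8% ± 15.8 and 38.1% ± 13.1, and at 3 to 5 windows the 38 windows averaged 54.0% ± 13.1 and 32.6% ± 11.0. At 6 to 20 windows, a group of 48 that holds the centromere stand-in, the means were 48.0% ± 22.95 and 27.97% ± 14.7. The 65 windows over 20 windows away, all on the distal long arm, averaged 47.8% ± 10.7 and 22.9% ± 8.27. The means fell with distance in both lists while the ranges of neighbouring groups overlapped.

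Some runs ended abruptly. The steepest change lay at 133 Mb, where the dense window had 83.7% (list 1) and 73.0% (list 2), while its neighbour had 11.3% and 4.50%. In steps of 100 kb the share was 88.9% and 81.0% in the step that began at 133200001, 70.9% and 51.6% in the one before it, 41.9% and 33.6% in the first step of the window, and 29.8% and 15.4% in the last step before 133 Mb. The change was thus spread over several steps on both sides of the border. At 32 Mb the window before the border had 84.7% and 66.0% and the window beyond it 26.7% and 11.2%. There the step from 32000001 to 32100000 was still covered 62.5% and 53.3%, and the step after it 18.6% and 9.88%.

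Other steep borders lay at 129, 115 and 61 Mb. The window from 129 Mb exceeded the one before it by 49.6 percentage points in list 1 and 54.0 in list 2. The window from 115 Mb exceeded its neighbour by 47.1 and 45.3 points, yet the last 100 kb of that neighbour were covered 98.9% and 98.8%, so the dense stretch began before 115 Mb. The window from 60 Mb exceeded the one after it by 43.5 and 50.5 points. The window from 128 to 129 Mb, with 36.7% and 22.5%, lay between dense windows on both sides.

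Many borders were shallow. Over the 40 borders the dense window exceeded its neighbour by a median of 17.6 points in list 1 and 20.9 in list 2. The lowest differences, -3.87 in list 1 and 1.46 in list 2, belonged to the border between the windows from 66 and 67 Mb. In the mean profile the first 100 kb inside a border were covered 79.2% ± 19.5 in list 1 and 61.4% ± 21 in list 2, against 72.4% ± 22.6 and 53.9% ± 24.1 in the first 100 kb outside (SD over 40 borders, of which single windows give 2 each). The fixed grid, not the peaks, sets where a border falls.

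**Figure D3:**
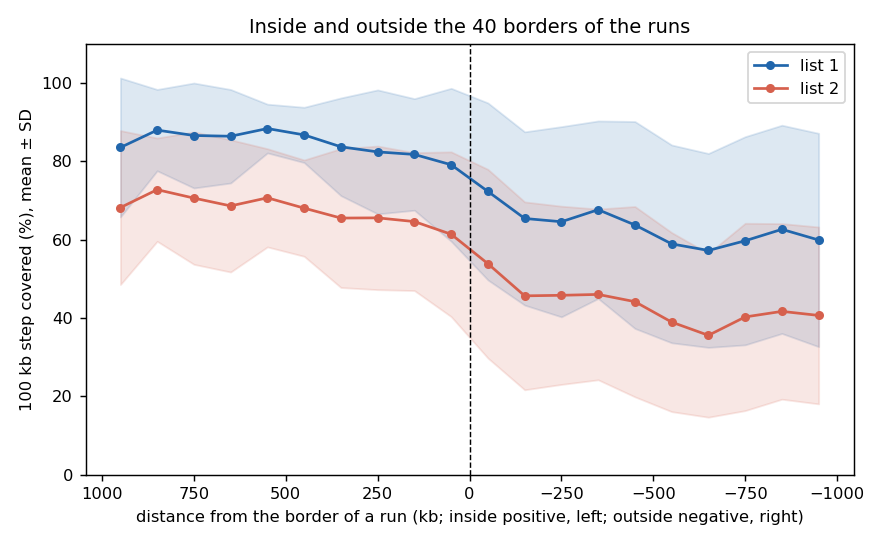
Mean covered share (%) of 100 kb steps in list 1 (blue) and list 2 (red) by distance in kb from the 40 borders of the runs, inside on the left and outside on the right, with bands of 1 SD over borders. Coverage was lower outside than inside in both lists and changed over a few steps, with 79.2% just inside and 72.4% just outside for list 1, and 61.4% and 53.9% for list 2.

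Dense windows held wider peaks. In list 1 their median peak width was 7185 bp (quartiles 2059 and 18952 bp), against 2253 bp (946 and 5664 bp) in the other windows, a ratio of 3.19. In list 2 the medians were 3551 bp (1374 and 8063 bp) and 1725 bp (814 and 3861 bp), a ratio of 2.06. Peaks of at least 10 kb made up 41.0% of the peaks in dense windows and 12.7% elsewhere on the chromosome in list 1. In list 2 they made up 19.2% and 5.44%.

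The share of peaks under 1 kb was lower in dense windows, at 13.4% against 26.2% in list 1 and 17.7% against 30.8% in list 2. Peaks of at least 25 kb carried 60.2% of the summed peak length of dense windows in list 1 and 26.4% in list 2, against 18.2% and 5.62% in the other windows. Of the list 1 peaks of at least 100 kb on the chromosome, 17 had their midpoint in the 30 dense windows and 6 in the 213 others.

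Peak numbers are given for each list apart, because the lower limits of the lists differ. In list 1 there were fewer and wider peaks, 57.5 per window against 111 per window elsewhere, and the number per dense window ran from 35 to 87. In list 2 the number was about that of the other windows, 104 against 99.3 per window. Among dense windows alone, those with more coverage had fewer peaks (Spearman's rho -0.58 in list 1 and -0.56 in list 2, over 30 windows that share these peaks). Among the 213 other windows rho was -0.19 in list 1 and 0.63 in list 2.

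The widest peak was a single block of 393 kb in list 1, from 59918047 to 60311120, with a fold of 2.18. List 2 covered 92.9% of it with 15 separate peaks. Its window, from 60 to 61 Mb, also had the lowest median width of the dense windows in list 1 (1855 bp). Next in width among the list 1 peaks of dense windows were 244 kb from 133610881 to 133855149 (fold 2.07) and 178 kb from 119245510 to 119423677 (2.23). They were followed by 166 kb from 65935685 to 66101839 (2.29) and 163 kb from 16108079 to 16271391 (2.27). List 2 covered between 86.8% and 92.4% of each of these, in 8 to 13 peaks. In the other windows the widest list 1 peak was 170 kb.

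In list 2 the widest peak of the other windows was 91.8 kb. The widest list 2 peaks of dense windows were 88.8 kb from 119304826 to 119393643 (fold 2.57) and 85.0 kb from 79515147 to 79600162 (2.63). They were followed by 83.9 kb from 60042160 to 60126016 (2.62), 73.7 kb from 116894890 to 116968638 (2.67) and 69.3 kb from 129376877 to 129446195 (2.43). Each lay wholly inside a single peak of list 1, and none of these 5 had q at or under 0.05 (−log10 q from 0.824 to 1.08). In dense windows 38.6% of the list 1 peaks held the midpoints of 2 or more list 2 peaks, against 16.2% in the other windows, and 17 of them held 10 or more.

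**Figure D4:**
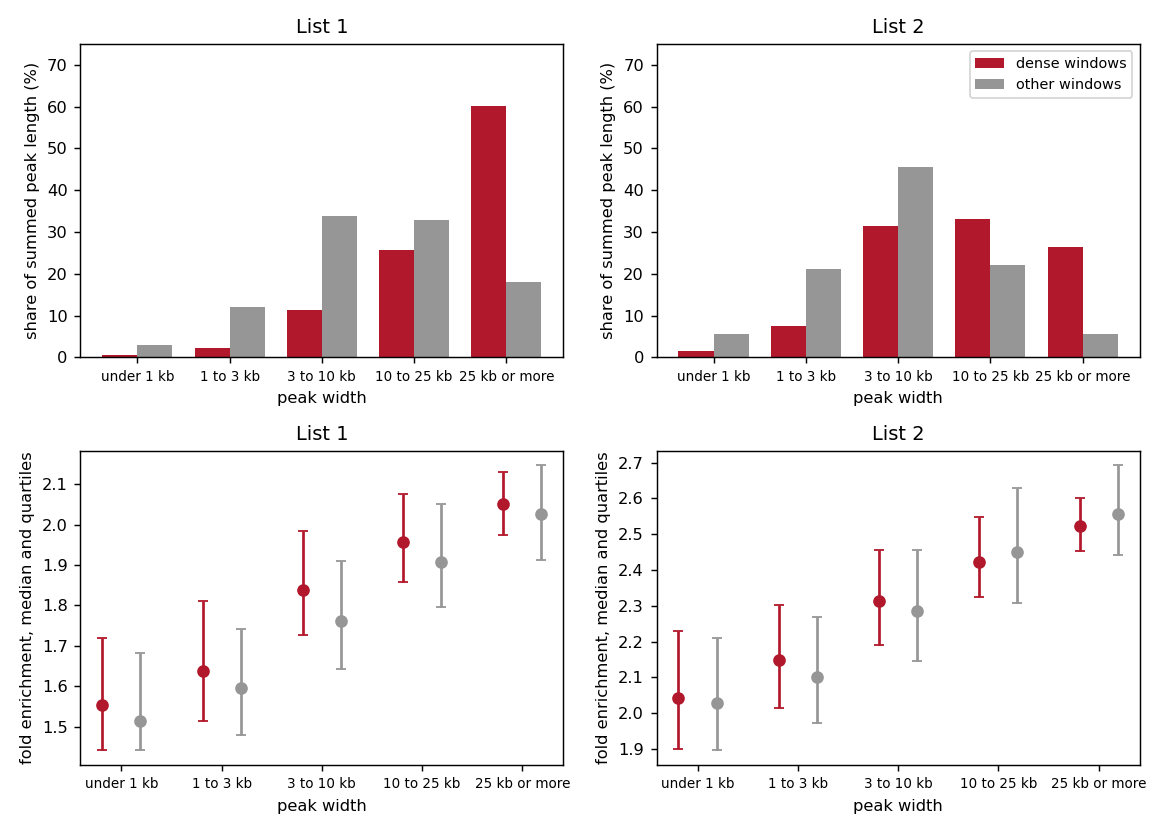
Peaks of list 1 (left) and list 2 (right) by width class in dense windows (red) and other windows (grey) of chromosome 2. The top row gives the share of summed peak length (%), which reaches 60.2% and 26.4% in dense windows for peaks of 25 kb or more, and the bottom row gives the median fold enrichment with quartiles, which rises with width in both kinds of window.

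Median enrichment was slightly higher in dense windows. The fold is the authors' value for each peak over the peak caller's background. Its median was 1.88 in dense windows and 1.67 in other windows in list 1, and 2.27 and 2.15 in list 2. The difference of 0.20 in list 1 was 0.0296 without the list 1 peaks whose −log10 p lay below every value of list 2. The difference of 0.12 in list 2 was 0.0530 among peaks above the median fold of the list. Dense windows were chosen anew under each filter, and numbered 27 and 18 in place of 30. Within a width class the folds lay close together. Peaks of 3 to 10 kb had medians of 1.84 in dense and 1.76 in other windows in list 1, and 2.31 and 2.28 in list 2. Among peaks of 25 kb or more they were 2.05 and 2.03 in list 1, and 2.52 and 2.56 in list 2. In list 2 the dense windows also had the lower median among peaks of 10 to 25 kb (2.42 and 2.45), and in the other classes of either list they had the higher one.

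The highest folds of the chromosome lay elsewhere. In dense windows the maximum was 2.88 in list 1 and 4.78 in list 2, against 15.1 and 20.5 in the other windows. None of the 10 highest folds of the chromosome lay in a dense window in list 1, and 1 did in list 2. In each list 8 of the 10 lay between 89 and 93 Mb, before the centromere stand-in, where windows were covered less than 20% in both lists. Peaks with q at or under 0.05 numbered 2 in the dense windows in list 1 (0.067 per window, against 0.244 in other windows). In list 2 they numbered 66 (2.2 per window, against 2.72). As a share of the peaks they were 0.116% against 0.220% in list 1 and 2.12% against 2.74% in list 2. Most peaks that made up the coverage were thus above this q.

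In list 2 the highest folds of dense windows belonged to narrow peaks. The first was the peak from 107557745 to 107559142, 1398 bp wide, with a fold of 4.78, which ranked 8 on the chromosome and lay inside a list 1 peak. The others had folds from 3.45 to 3.69, and 2 of them lay in the window from 119 to 120 Mb. In list 1 the highest were the peak from 119958372 to 119964750 (2.88) and the peak from 133211196 to 133249222 (2.76). The peak of list 2 from 119959542 to 119964512 (3.55) overlapped the first of these. Within dense windows this place was thus among the 5 highest in both lists.

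Peaks of dense windows joined into long domains. Domains are peaks of 1 list less than 10 kb apart, joined. Domains of at least 100 kb held 97.9% of the length of dense windows in list 1 and 89.5% in list 2, against 68.6% and 33.1% of the other windows. A single domain held on average 91.4% ± 12 of a dense window in list 1 and 66.6% ± 19.5 in list 2, against 46.2% ± 26.4 and 20.6% ± 15.3 of another window (SD over windows). With a joining distance of 3 kb the share of dense windows in such domains was 66.3% in list 1 and 28.1% in list 2.

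The 4 longest domains of the chromosome in list 1 and the 5 longest in list 2 overlapped dense windows. In list 1 the longest spanned 5.28 Mb, from 122524426 to 127805835, held 361 peaks and took in 2.81 Mb of the run from 125 to 128 Mb. The next were 4.44 Mb from 80091656 to 84536436, 4.02 Mb from 48732431 to 52748263 and 3.93 Mb from 114650779 to 118585428. The last of these contained the whole run from 115 to 118 Mb. Of the length of each of the 5 longest domains that overlapped dense windows, 37.2% to 76.2% lay inside them, so these domains ran on past the members.

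In list 2, 55.9% to 100% of the length of each of the 5 longest domains lay inside dense windows. Because the lower limits of the lists differ, these shares are not compared with those of list 1. The longest, 1.81 Mb from 125571796 to 127385603, held 219 peaks and lay wholly in dense windows. The next were 1.79 Mb from 114731725 to 116526421, 1.74 Mb from 21462098 to 23206321, 1.59 Mb from 116537001 to 118129253 and 1.54 Mb from 129140732 to 130678249. Of the 10 domains of at least 1 Mb in list 2, 8 overlapped a dense window, and of the 40 in list 1, 20 did. The run from 115 to 118 Mb was 1 domain in list 1 and was split in list 2 between 116526421 and 116537001.

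The lists shared most of their length in dense windows. Base pairs in both lists made up 96.0% of list 2 and 77.5% of list 1 there, against 90.3% and 52.9% in the other windows. The Jaccard index, the length in both lists over the length in either, was 0.751 in dense windows and 0.501 elsewhere on the chromosome. A higher index follows in part from high coverage in both lists, which chose the windows. Over single windows it ran from 0.652 (4 to 5 Mb) to 0.859 (16 to 17 Mb). The dense windows made up 12.3% of the full windows but held 18.5% of the length that list 1 covered on them and 23.8% of that of list 2.

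Coverage within a dense window was uneven. Of the 300 steps of 100 kb in dense windows, 225 (75%) were themselves covered more than 60% in both lists, against 217 of 2130 (10.2%) in the other windows. All 10 steps passed in only 2 dense windows, the median was 7, and the fewest was 5. More than 90% in both lists was reached by 26 steps in dense windows and 7 elsewhere. The highest step, from 60000001 to 60100000, was covered wholly by list 1 and 97.2% by list 2. The lowest, from 107000001 to 107100000, had 1.47% under list 1 and 0% under list 2, and it was the only step of a dense window under 20% in both lists.

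Stretches covered by neither list were short inside dense windows. They made up 11.6% of the length, against 43.9% in the other windows, with medians of 1456 and 1983 bp. Only 21 of the 1529 stretches in dense windows reached 10 kb. The longest, 83.2 kb from 107000001 to 107083230, is cut by the window border, and a stretch of 47.0 kb from 107084699 to 107131690 lay next to it. Others were 50.5 kb from 16279536 to 16330078, 36.3 kb from 52749214 to 52785554 and 27.7 kb from 240782294 to 240810009.

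Set beside chromosomes 8, 10, 5 and 20 only, the runs of chromosome 2 were shorter than those of chromosome 8 and more like those of chromosome 20. The dense windows of chromosome 2 formed 20 runs of at most 3 windows, a mean of 1.5 windows per run. Chromosomes 7, 16 and 21, each with 3 dense windows, had the same mean. The 21 dense windows of chromosome 8 formed 6 runs with a longest of 8, a mean of 3.50. The 16 of chromosome 10 formed 9 runs with a longest of 5, the 15 of chromosome 5 formed 8 runs with a longest of 8, and the 10 of chromosome 20 formed 6 runs with a longest of 3. By share of full windows, chromosome 2 (12.3%) stood below chromosomes 20 (16.1%) and 8 (14.4%).

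In the character of their peaks the dense windows of chromosome 2 lay near those elsewhere. Their median coverage was 85.5% in list 1 and 68.5% in list 2, against 86.4% and 70.1% in the 112 dense windows of other chromosomes. Their median peak widths were 7185 and 3551 bp, against 6347 and 3988 bp, and their median folds were 1.88 and 2.27, against 1.88 and 2.30. Peaks with q at or under 0.05 were fewer, at 2.2 per window in list 2 against 5.16 in the dense windows of other chromosomes and 9.76 in those of chromosome 8. As a share of the list 2 peaks they were 2.12%, against 5.75% and 13.9%. The densest window of chromosome 2 reached 82.7% in list 2, against 91.7% on chromosome 8 and 89.8% on chromosome 10.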

How the data were processed

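The submitters' processing notes name MACS2 2.2.7.1, Bowtie2 2.5.0, Trim Galore 0.6.7 and bcl2fastq 2.17 and the build hg19, without roles. Peak cutoff, control and pooling are not given there. Each peak's fold enrichment, deposited by the authors, is a ratio to a background estimated in peak calling. Its −log10 p and −log10 q (p-values and q-values) and its score were deposited by the authors as well, and the score was not used. Depth per sample is unknown, so no interval is given.

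Peaks within a list did not overlap on chromosome 2. Windows were full 1 Mb windows, peaks were placed by their midpoint (22 peaks of each list in dense windows crossed a window border), and coordinates are 1-based. The members and lists were chosen with earlier results of these data known. The rule for named regions took every dense window, the 5 densest, 3 on each side of the limit, and the 5 widest peaks, highest folds, longest domains and longest uncovered stretches. It named no gene, because the gene table and the promoter sequences used here are on GRCh38.p14 and no sequence of hg19 was used. No test was made. Alternatives covered the limit, grid, window size, peak filters, joining distance, placement of peaks and comparison windows. The steps were tested on simulated peaks and recovered 8 of 8 known answers. Scripts ran on pandas 2.3.3, numpy 2.4.6, matplotlib 3.10.9 and scipy 1.17.1 under Python 3.11.15.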

Additional observations from a re-analysis of the deposited data

How the results depend on the processing

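The number of dense windows, 30 with 20 runs, was 48 at a limit of 50%, 14 with 9 runs at 70%, 67 of 486 with 33 runs for windows of 500 kb, 18 with 11 runs when a peak had to exceed its list's median fold, and 0 for peaks with −log10 q of at least 2, where no other value could be had. The difference of median folds was 0.0296 in list 1 without those of its peaks whose −log10 p lay below every value of list 2. It was 0.0530 in list 2 for peaks above the median fold. Dense windows were chosen anew under each of these filters, and numbered 27 and 18. With a joining distance of 3 kb, domains of at least 100 kb held 28.1% of dense windows in list 2. The dense windows from 135 Mb on, looked at after seeing the data, numbered 4 for windows of 500 kb, 2 at a limit of 50% and 0 at 70%. The other 65 of 79 values under 11 alternatives stayed within the bound set for them. This bound was 1.5 times the reported value or, for the share on the long arm, its 95% Wilson interval. That interval treats neighbouring windows as independent. In list 1 the share of dense windows in domains of at least 100 kb was 66.3% with the joining distance of 3 kb, which is within the bound. No width ratio and no fold difference turned direction, and a turn was not recorded for the other results. The share on the long arm ran from 41.7% to 54.2%, so which arm held more dense windows by count depended on the setting. In every setting that gave a share it was below 61.3%, the long arm's share of the full 1 Mb windows. No paired analysis was possible because neither list was given to a sample. Unknown depth and unequal lower limits keep coverage from being compared between the lists.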
